A study of Saccharomyces cerevisiae with 16 samples.

Results

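Trimethylation of histone H3 at lysine 4 (H3K4me3) was examined at 48 genes of meiosis and sporulation, out of 6002 protein-coding genes on the 16 nuclear chromosomes of Saccharomyces cerevisiae. The genes were taken from a list of named members, not by a cut on measured values. Earlier results of these data were known when the list was chosen. A gene was called marked in a library when at least 1 bp of an H3K4me3 peak lay in its start window, which runs from 200 bp before to 500 bp after the annotated start of the coding sequence. Peaks over gene bodies, at 3′ ends and at adjacent genes were then set beside these calls.

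The series asked how synthetic DNA is treated by yeast chromatin. CUT&RUN, which releases antibody-bound chromatin with a tethered nuclease, was run on the haploid MATa laboratory strain BY4741 carrying a synthetic human HPRT1 locus or its reversed form, HPRT1R. The 4 groups were HPRT1R on a yeast artificial chromosome (YAC), HPRT1 on a YAC, HPRT1R integrated on chromosome XI and HPRT1 integrated on chromosome XI, with 2 H3K4me3 libraries each, and 8 further IgG samples were not analysed here. Cells were harvested in logarithmic growth: per the labels' protocols they were diluted to an optical density of 0.1 and grown at 30 °C for 6 hours to about 0.6, before CUT&RUN with 0.5 µg of antibody. YAC strains grew in SC-Leu and integrated strains in YPD, so that effects of configuration and medium cannot be told apart. The titles call the assay ChIP. The cell line entry of HPRT1 YAC replicate 2 names HPRT1R, but HPRT1 stands in its title, source name and genotype, which were followed. The labels do not say whether replicates were separate cultures, and p-values measure only the spread between these libraries, which may be technical.

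Meiosis in budding yeast is started in diploid MATa/MATalpha cells under starvation by the transcription factor Ime1. In dividing cells many early meiotic promoters are held inactive by Ume6, which recruits the Rpd3-Sin3 deacetylase and the Isw2 remodeller, and middle genes wait for the transcription factor Ndt80 while Sum1 occupies many of their promoters. H3K4me3 is written by the Set1 enzyme of the COMPASS complex near the 5′ ends of genes that RNA polymerase II transcribes.

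The libraries held 3463 to 4049 peaks. Peak lists give no read totals, but the read pileup expected by the caller could be recovered from the fold and p-value of each peak. Its 10th percentile over the peaks of a library was 76.2 to 98.9 reads, and single peaks could have a higher expectation. At that expectation the weakest pileups called were 99 to 124 reads, so that enrichment below this level gave no peak and was not detectable. HPRT1R YAC replicate 1 stood apart, with the fewest peaks (3463), the highest expected pileup and only 32.6% of all genes with a summit within 500 bp after the start, against 38.4 to 47.4% in the other 7 libraries. Mating type was checked on its markers: the a-specific genes STE2, STE6 and BAR1 were marked in all 8 libraries, MFA1 in 2, MFA2 in 1 and AGA2 in none, while of 4 alpha-specific genes 3 were marked in none and STE3 in 1.

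The starts of the meiosis and sporulation genes were almost free of H3K4me3 peaks. Of the 48 genes, 46 were marked in no library, against 14.8% of all protein-coding genes, and 0 were marked in all 8 libraries, against 66.5%. The number marked was 0 and 0 in HPRT1R YAC libraries, 1 and 1 in HPRT1 YAC libraries, 1 and 1 in HPRT1R integrated libraries, and 1 and 2 in HPRT1 integrated libraries, a mean of 0.875 ± 0.641 (SD, n = 8). As a share this was 1.82% ± 1.34 of the list, against 77.5% ± 1.69 of all genes (SD, n = 8). No library put a summit within 500 bp after the start of any of the 48, whereas 66.8% of all genes had one in at least 1 library. The 2 genes marked in 1 to 7 libraries, against 18.7% of all genes, were SMK1, in 6, and RED1, in 1. Members just outside the window, by the closest of the 8 libraries, were SPO73, AMA1, SPO19, MEI5 and REC102. Over the libraries the nearest upstream peak ended 203 to 752 bp before SPO73 and 271 to 2600 bp before AMA1. It ended 324 to 391 bp before SPO19 and 351 to 367 bp before MEI5. At REC102 a peak began 673 to 1017 bp downstream of the start.

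**Figure D1:**
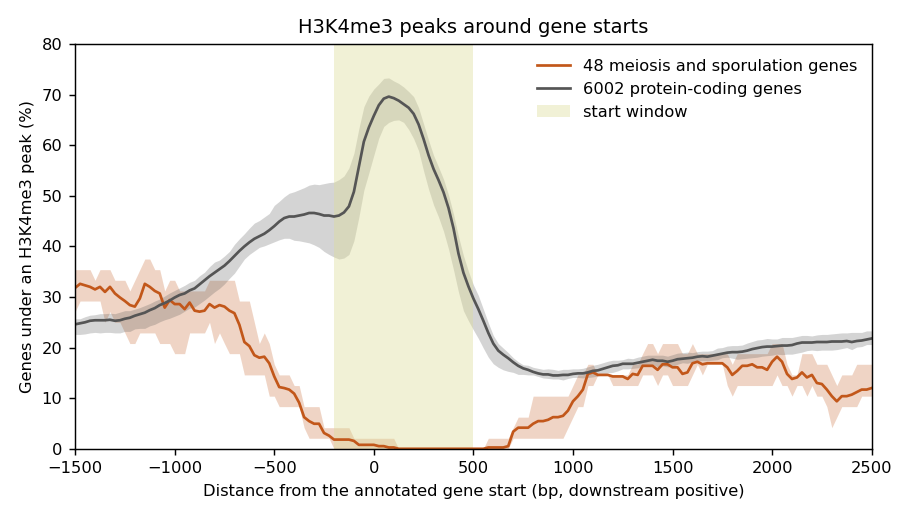
Percent of genes under an H3K4me3 peak by distance from the annotated start (bp), for the 48 meiosis and sporulation genes and all 6002 protein-coding genes, with lines for the mean and bands for the lowest and highest of 8 libraries. All genes reached 69.6% at 75 bp after the start, while the 48 genes stayed at or under 1.82% on average across the start window.

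Each functional class showed the same absence. All 3 regulators (IME1, NDT80 and the meiosis-specific kinase gene IME2) were unmarked in every library. So were all 5 genes of double-strand break formation, namely SPO11, the catalytic subunit that cuts DNA, REC102 and REC104 of its core complex, and the accessory factors REC114 and MEI4. The 7 genes of strand exchange and crossover were unmarked too: DMC1, the meiotic RecA homologue, its helpers SAE3, MEI5, HOP2 and MND1, and the crossover factors MSH4 and MSH5. Among 8 genes of the chromosome axis, cohesion and synaptonemal complex, 7 were unmarked. These were REC8, the meiotic cohesin subunit, HOP1 and MEK1 of the axis checkpoint, ZIP1, whose product joins homologues, and ZIP2, SPO16 and SPO22. The eighth was RED1. All 3 genes of splicing and meiotic divisions were unmarked (MER1, a splicing activator, SPO13, which acts in meiosis I, and AMA1, a meiotic activator of the anaphase-promoting complex). Of 13 genes for the prospore membrane and its kinases 12 were unmarked, the exception being SMK1, a mitogen-activated protein kinase of spore wall formation. All 9 genes of the spore wall and other sporulation-specific genes were unmarked, among them DIT1 and DIT2, which make the dityrosine layer, and the chitin deacetylases CDA1 and CDA2.

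Genes of the factors that hold meiotic genes inactive, and of mitotic relatives of the meiotic proteins, were marked at shares near that of all genes, of which 66.5% were marked in all 8 libraries. Of 10 mitotic repressor genes, 6 were marked in all 8 libraries (UME6, SIN3, RPD3, HST1, TUP1 and CYC8) and the other 4 in 1 to 7, namely SUM1 in 7, RME1 in 6, RFM1 in 3 and ISW2 in 1. Of 7 genes that signal entry into meiosis, 5 were marked in all 8 (RIM11, RIM15, MCK1, MUM2 and RIM101), SNF1 in 7 and IME4 in 1. Of 10 mitotic counterparts, 6 were marked in all 8 and 1, MSH6, in none. Relatives can be set side by side, some with and some without a difference in coverage. SMK1 had 0 to 43.9% of its start window under peaks, against 61.8% ± 18.8 at the cell wall integrity kinase gene SLT2 (SD, n = 8). REC8 was at 0% in every library, against 16.8% ± 18.2 at its mitotic counterpart MCD1, which was marked in 4 libraries (SD, n = 8). AMA1 was at 0%, against 80.1% ± 17.6 at CDC20 and 96.2% ± 7.71 at CDH1, and SPO20 at 0%, against 78.3% ± 13.9 at SEC9 (SD, n = 8). MSH4 and MSH5 were at 0%, against 57.2% ± 28.4 at MSH3 (SD, n = 8), but MSH6 was also at 0% in every library. MEK1 was at 0%, against 5.19% ± 14.7 at RAD53, which was marked in 1 library (SD, n = 8). Of 32 further meiotic or sporulation genes outside the list, 23 were marked in no library, 6 in 1 to 7 and 3 in all 8. Those 3 were REC107, SPO71 and OSW1, with 45.5% ± 3.17, 37.5% ± 3.62 and 7.74% ± 1.61 of the start window under peaks. REC107, which works with REC114 and MEI4 in break formation, had a summit after its own start in 7 libraries.

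**Figure D2:**
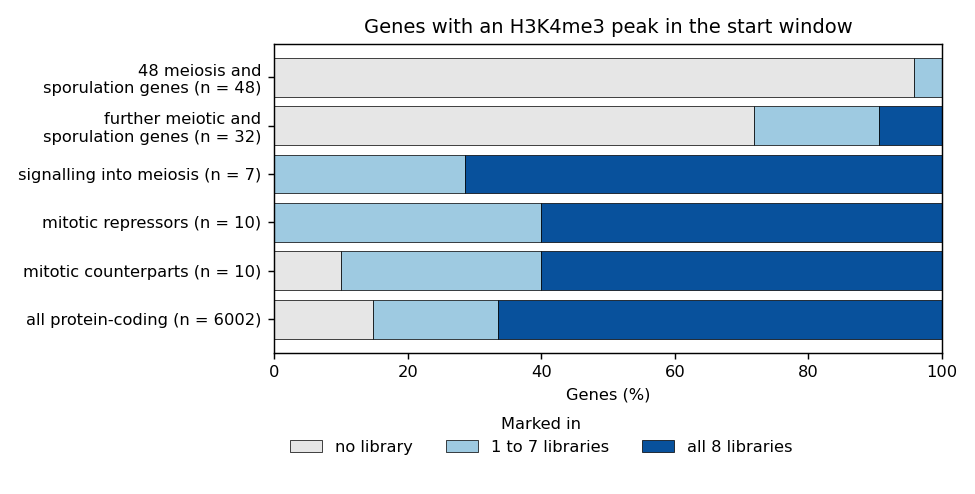
Percent of genes marked in no library, in 1 to 7 libraries or in all 8 libraries, for the 48 genes, further gene lists and all protein-coding genes, with the number of genes in each list. The grey share is 95.8% for the 48 genes, 71.9% for the further meiotic and sporulation genes and 14.8% for all genes.

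The gap over these genes was wide. The stretch without a peak around the gene start had a median of 4944 bp over the 48 genes (range of the per-gene medians over libraries, 783.5 to 9275.5 bp). The other 841 genes marked in no library had a median of 4927 bp, so the stretch was close to that of unmarked genes in general, and the median over all genes was 0. In 21 of the 48 every peak in every library lay at least 1000 bp from the start. In 34 no library had a peak between 500 bp upstream and 1000 bp downstream. These limits were set after the data had been seen. The same counts were not made over all genes or over the other unmarked genes, so they show no trait of the list. The widest median stretch was that of REC104. Gene bodies were mostly bare too: 40 of the 48, or 83.3%, had no peak over the body in any library, against 15% of all genes and 88.3% of the genes marked in no library, and 42 members when HPRT1R YAC replicate 1 was left out. On average 1.85% ± 0.381 of a body lay under peaks, against 33.4% ± 1.53 over all genes (SD, n = 8).

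The upstream neighbour was marked in all 8 libraries for 25 of the 48, the downstream neighbour for 27, either one for 41 and both for 11. As single genes, 66.5% of all genes were marked in all 8, which is no measure for either or both neighbours. In 3 of the 48 neither neighbour was marked in any library. The shares of all genes with either, both or no marked neighbours were not counted, so these counts are given without a comparison.

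A tandem upstream neighbour, which runs in the same direction, was found for 21 members, and 12 of these neighbours were marked in all 8 libraries. In the pairs named next the 5′ peak of the neighbour lay at the far end of that gene, and its downstream edge set the distance to the member. At SAE3 behind LAM4, by contrast, the nearest upstream peak ended 3917 to 4366 bp before the start, in most libraries beyond the start of LAM4. SPO19, a prospore membrane gene behind the ribosomal protein gene RPL5, had this edge 324 to 391 bp before its start over the 8 libraries. SPO77 behind the ribosomal stalk gene RPP0 had it at 572 to 797 bp, SPO21, a component of the meiotic spindle pole plaque, behind YPQ1 at 688 to 736 bp, and DMC1 behind the pyruvate dehydrogenase gene PDA1 at 670 to 1032 bp. SPO11 behind AIM17 was farther off, at 912 to 1024 bp, and had no peak for at least 5417 bp in the other direction. MSH5 behind CLB3 and SSP1, which coats the leading edge of the prospore membrane, behind GND1 had it at 1061 to 1084 bp and 1097 to 1584 bp.

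Some members shared a stretch without a peak. HOP1 and SPO22 lay in one with a median of 6641 bp, CDA1 and CDA2 one of 7544 bp, SPS1 and SPS2 one of 5029 bp, and DIT1 and DIT2 one of 5177.5 bp. Stretches around single members were 7998 bp at ZIP2, 7712.5 bp at REC8, 7689.5 bp at SPO1, 8672.5 bp at SSP1, 8889 bp at SPO11, 7521 bp at SPS100 and 9275.5 bp at REC104. Shorter ones lay around SPO21 (2779.5 bp), SPS4 (2659.5 bp), NDT80 (2326 bp), IME1 (2228.5 bp), SPO77 (2032.5 bp) and REC102 (1847.5 bp). The remaining members not named elsewhere, SSP2, an activator of Smk1, GIP1, a targeting subunit of protein phosphatase 1, and SPS22, a relative of SPS2, had medians of 4113.5, 5267 and 4803.5 bp.

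**Figure D3:**
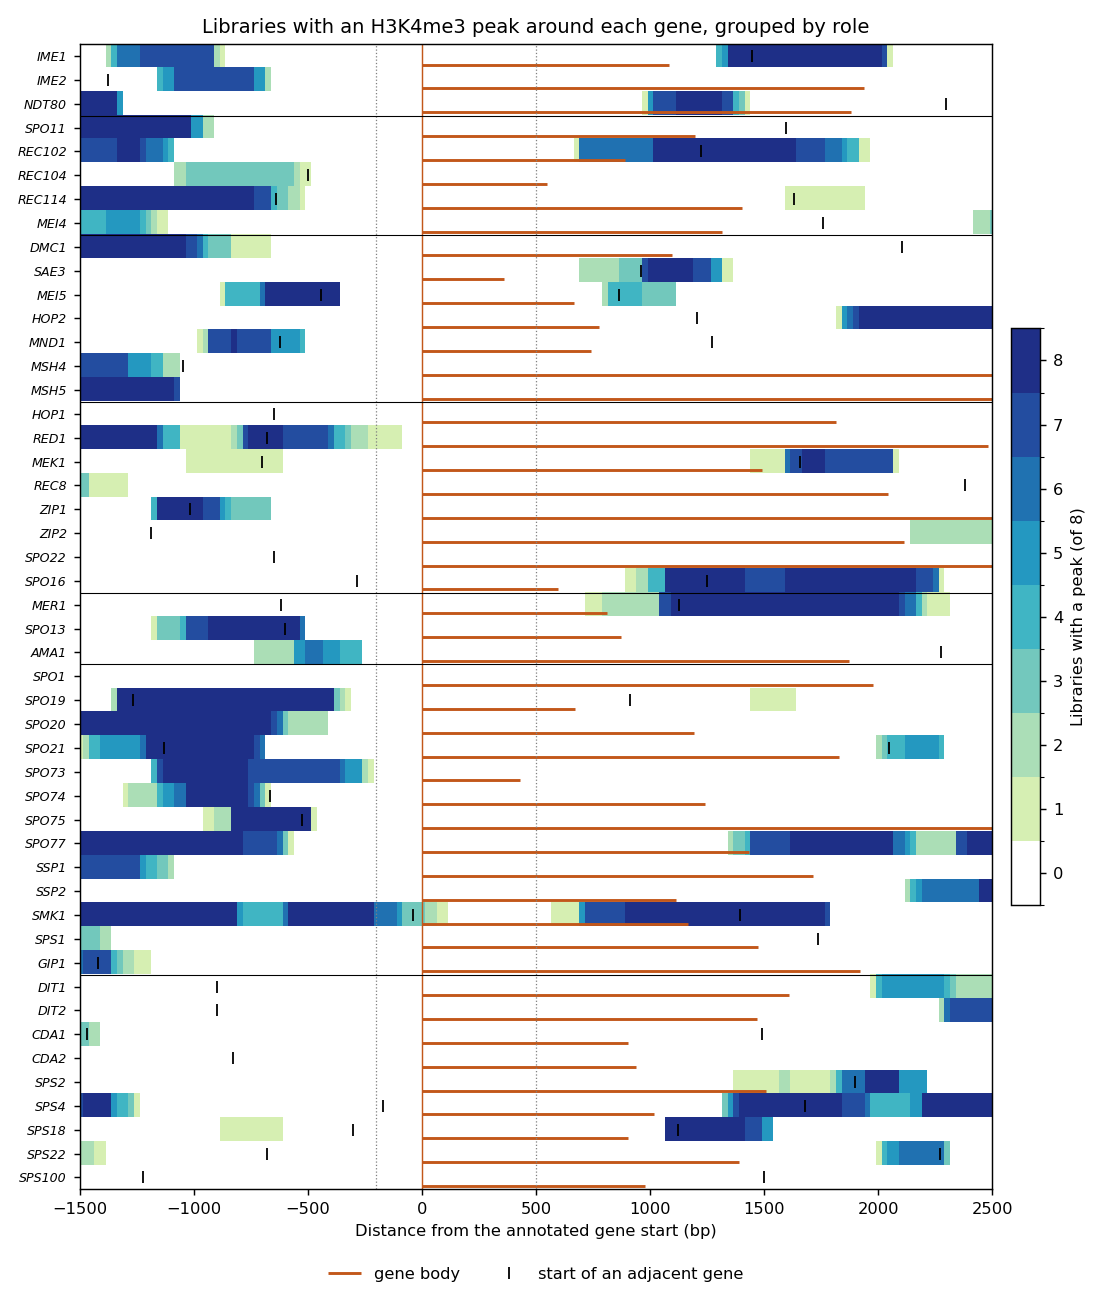
Number of libraries (of 8) with an H3K4me3 peak at each distance from the start of each of the 48 genes, grouped by role; orange lines give the gene body, black ticks the starts of adjacent genes and dotted lines the start window. The window is empty in every row but SMK1 and RED1, and the dark blocks lie outside it.

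SMK1 (YPR054W, chromosome XVI, 666280 to 667446, plus strand, build sacCer3) was the member most often marked. Peaks covered 0 and 0% of its start window in HPRT1R YAC libraries, 29.1 and 17% in HPRT1 YAC libraries, 16.8 and 43.9% in HPRT1R integrated libraries, and 38.9 and 14.1% in HPRT1 integrated libraries. The 2 libraries at 0 were both HPRT1R YAC, and YAC and integrated libraries overlapped. The divergent gene YPR053C begins only 36 bp away and was marked in all 8 libraries, and the genes named beside SMK1 are given for their position. The summits of the 6 peaks lay 259 to 1151 bp upstream of SMK1, after the starts of YPR053C, NHP6A, a chromatin architectural protein gene, or MAK3, an acetyltransferase gene. In HPRT1R YAC libraries the same upstream peaks stopped 212 and 210 bp before SMK1, just short of the window. At the other end a peak over the start of SEC8, an exocyst gene downstream, ran back into SMK1 in all 8 libraries, with a fold over expectation of 2.91 ± 0.297 (SD, n = 8; the authors' own value).

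RED1 (YLR263W, chromosome XII, 670340 to 672823, plus strand), which builds the meiotic chromosome axis, was marked in HPRT1 integrated replicate 2 alone. The nearest upstream peak ended 302 and 617 bp before its start in HPRT1R YAC libraries, 388 and 413 bp in HPRT1 YAC libraries, 399 and 345 bp in HPRT1R integrated libraries, and 244 and 78 bp in HPRT1 integrated libraries. The last of these, which alone reached the window, was a peak from 1670 to 78 bp upstream with its summit at 1504 bp, after the start of YPT6. In the other libraries the peak lay around the start of the divergent gene TMA7, 677 bp away.

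In all 7 pairs of a marked member and a library (100%), the peak was centred after the start of another gene and not after that of the member. These pairs were SMK1 in 6 libraries and RED1 in 1, so they are not independent and describe these genes, not the list. No member had a summit after its own start in any library, so that part of the rule was met beforehand. Over all genes the rule held for 6452 of 37206 marked pairs, or 17.3%.

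No change with configuration or with the orientation of the synthetic locus was detected at these genes. Of the 48, only SMK1 and RED1 varied between libraries and entered the test of limma on the percent of the start window under peaks, with Benjamini-Hochberg adjustment over 4777 genes. The SMK1 window was 11.5% covered on average in YAC libraries and 28.5% in integrated libraries, a difference of -16.9 percentage points (SE 8.66, n = 4 libraries each, limma adjusted p = 0.653), and RED1 averaged 0 and 4.39% (difference -4.39, SE 4.25, limma adjusted p = 0.744). For HPRT1R against HPRT1, SMK1 averaged 15.2% and 24.8% (difference -9.59, SE 8.66, limma adjusted p = 0.928) and RED1 0 and 4.39% (difference -4.39, SE 4.25, limma adjusted p = 0.928). The interaction, the YAC minus integrated difference in HPRT1R less that in HPRT1, was -26.9 points for SMK1 (SE 17.3, limma adjusted p = 0.692) and 8.77 points for RED1 (SE 8.49, limma adjusted p = 0.699). Among all genes tested, 1.47% were called for YAC against integrated, 0.23% for HPRT1R against HPRT1 and 0.628% for the interaction. On simulated data the fit made more false calls than its threshold implies, so these shares are not firm. The mean number of marked members was 0.5 ± 0.577 in YAC and 1.25 ± 0.5 in integrated libraries, and likewise 0.5 ± 0.577 in HPRT1R and 1.25 ± 0.5 in HPRT1 libraries (SD, n = 4 each), differences of -0.75 that rest on SMK1 and RED1.

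On the side of a divergent neighbour, peaks stopped before the start in every library at 8 of 9 members, SMK1 being the exception. These 9 were the members with a divergent neighbour marked in all 8 libraries over a gap of at most 1100 bp, a limit set after the data had been seen. Of the 9, 7 were themselves unmarked everywhere, so that at these 7 an edge before the start followed from the marking rule. The share of all genes in this layout with an edge before the start in every library was not counted, only their marking. Of 2059 genes in the same layout 4.37% were unmarked in every library and 87.2% marked in all 8, which held for 0 of the members. MEI5, a Dmc1 accessory factor, lies 440 bp from VPS30, an autophagy gene. The VPS30 peak ended 363 and 363 bp before MEI5 in HPRT1R YAC libraries, 367 and 363 bp in HPRT1 YAC libraries, and 351 bp in each integrated library. The edge varied over 16 bp in all. The YAC and integrated libraries did not overlap here, but MEI5 was chosen after its values were seen. How often edges separate in this way over all genes was not counted, and the difference was not tested. At SPO13 the peak of ARD1, an acetyltransferase gene 600 bp away, ended 502 to 538 bp before the start over the 8 libraries, and at SPO75 the peak of the replication origin gene ORC3 ended 472 to 494 bp before it. At MND1, whose neighbour GTS1 begins 620 bp away, the edge ranged from 511 to 810 bp, and at ZIP1, 1016 bp from DPP1, from 670 to 955 bp. At REC114 the edge ranged from 524 to 742 bp, with JLP2 beginning past a gap of 636 bp and the summit 1519 to 1667 bp upstream, after the start of RRB1 in all 8 libraries. SPO74 had edges at 672 to 772 bp. There the edge lay inside SUA5, which begins past a gap of 664 bp, in every library. Among the members, 2 pairs were divergent to each other, HOP1 with SPO22 over 647 bp and DIT1 with DIT2 over 898 bp, and neither side was marked in any library.

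**Figure D4:**
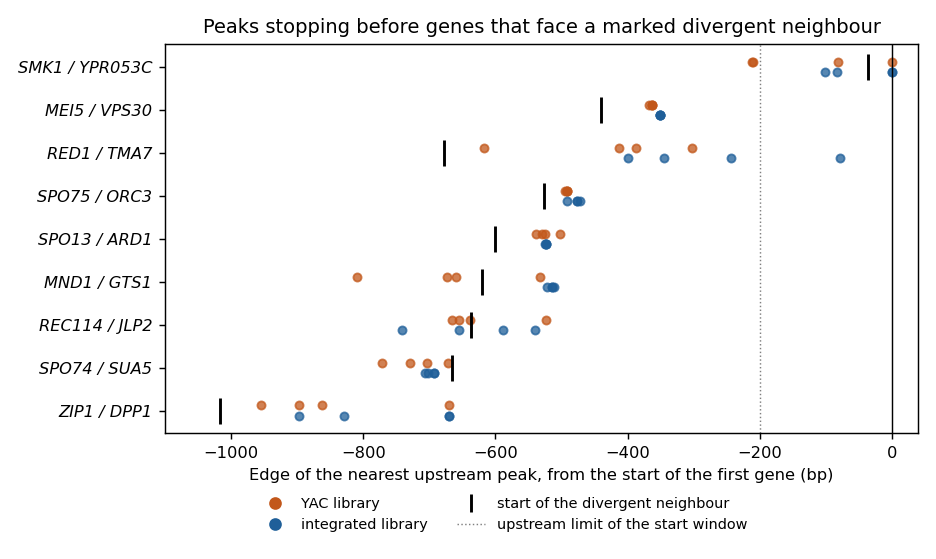
Distance from the start of each member (first name) to the edge of the nearest upstream peak (bp, upstream negative), for YAC and integrated libraries, with black ticks at the start of the divergent neighbour (second name); points at 0 are peaks that reach the start. Edges stay left of the window limit at 200 bp upstream except at SMK1 and in 1 library at RED1.

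The mark reached more members at their 3′ ends than at their starts. Within 200 bp of the annotated end, 12 of the 48 had a peak in at least 1 library, against 40.3% of all genes, and 11 when HPRT1R YAC replicate 1 was left out. All 12 were among the 29 members followed by a gene in the same direction, and 0 were among the 19 that converge with the next gene. Where the downstream gene was marked in all 8 libraries, the 3′ end was reached in 8 of 13 tandem members, against 68% of 1719 genes, and in 0 of 14 convergent members, against 29.8% of 2107 genes. A peak lay there in all 8 libraries for 5 members, each before a marked tandem gene: REC102 before CHS5, MEK1 before MNE1, SPO77 before FKS1, SMK1 before SEC8, and SPS18 before RTT106. The peak after SPO77 had its summit after the start of FKS1 in 2 libraries and between the genes in the others. Likewise, the summit lay after the start of CHS5 in 2 libraries at REC102 and after that of SEC8 in 5 at SMK1, and between the genes in the others. REC102 had 23.2 and 0% of its coding sequence under the peak over the start of CHS5 in HPRT1R YAC libraries, 0 and 22.1% in HPRT1 YAC libraries, 23.3 and 23.2% in HPRT1R integrated libraries, and 24.6 and 23.2% in HPRT1 integrated libraries. The peak began 673 to 695 bp after the start of REC102 in 6 libraries and at 1016 or 1017 bp, past its end, in the other 2. Peaks also covered the ends of SPO22 (6 libraries, at most 5.9% of the body), SPO77 (7 libraries, at most 6.97%) and MER1 (2 libraries, at most 13.7%). At SPO22 the peak in HPRT1R YAC replicate 2, from 2793 to 2970 bp after the start, lay wholly inside the gene, and those in the other libraries covered the start of SER33. In HPRT1R YAC replicate 1 alone, peaks covered 3.15% of MEK1 and 9.94% of SPS2.

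NDT80 (YHR124W, chromosome VIII, 356561 to 358444, plus strand) had a peak inside its body, away from any annotated gene start, in all 8 libraries. The peak had a fold over expectation of 1.51 and 1.95 in HPRT1R YAC libraries, 1.84 and 1.93 in HPRT1 YAC libraries, 2.01 and 1.79 in HPRT1R integrated libraries, and 2.16 and 1.94 in HPRT1 integrated libraries (the authors' own values). It covered 16.7 to 23.9% of the body. It began 971 to 1107 bp after the start and ended by 1432 bp, with its summit at 1157 to 1227 bp, while the start window and the 3′ end had no peak. The peak was of modest rank, on average at the 31.9 ± 9.44 percentile of fold among the peaks of its library (SD, n = 8), with 150 to 180 reads at the summit, against 76.7 to 98.9 expected. SMK1 was the one other member with a body peak in all 8, against 64.6% of all genes.

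Peaks also stood upstream of the 2 early regulators, apart from any coding gene. At IME1 (YJR094C, chromosome X, 604569 to 605651, minus strand) the nearest upstream peak ended 2531 and 921 bp before the start in HPRT1R YAC libraries, 910 and 921 bp in HPRT1 YAC libraries, 882 and 921 bp in HPRT1R integrated libraries, and 856 and 902 bp in HPRT1 integrated libraries. All but the first were 1 peak between 1384 and 856 bp upstream, with a fold of 1.71 ± 0.152 (SD, n = 7) and 119 to 152 reads at the summit. It lay inside IRT1, a noncoding RNA annotated from 1773 to 285 bp upstream of IME1 on the same strand, whose transcription in haploid cells is known to repress IME1. Peaks lay over IRT1 in 7 libraries, covering at most 32.2% of it, and in its start window in 6, but its start had no summit within 500 bp in any library. At IME2 (YJL106W, chromosome X, 221390 to 223327, plus strand) the nearest upstream peak ended 3545 and 684 bp before the start in HPRT1R YAC libraries, 699 and 726 bp in HPRT1 YAC libraries, 663 and 735 bp in HPRT1R integrated libraries, and 690 and 673 bp in HPRT1 integrated libraries. The peak present in the last 7 libraries had a fold of 1.99 ± 0.244 (SD, n = 7) and its summit 997 to 1039 bp upstream, in the interval before the divergent YJL107C, which was itself unmarked. Both peaks were thus missing in HPRT1R YAC replicate 1, the library with the fewest peaks, and the part of depth in this was not tested. Upstream peaks with no summit after a coding start stood also before SPO20, a SNARE protein gene of the prospore membrane (8 libraries, fold 2.57 ± 0.368), and SPO73 (8 libraries, fold 2.21 ± 0.363; SD, n = 8), and more weakly before AMA1 (6 libraries, fold 1.4 ± 0.0915; SD, n = 6).

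**Figure D5:**
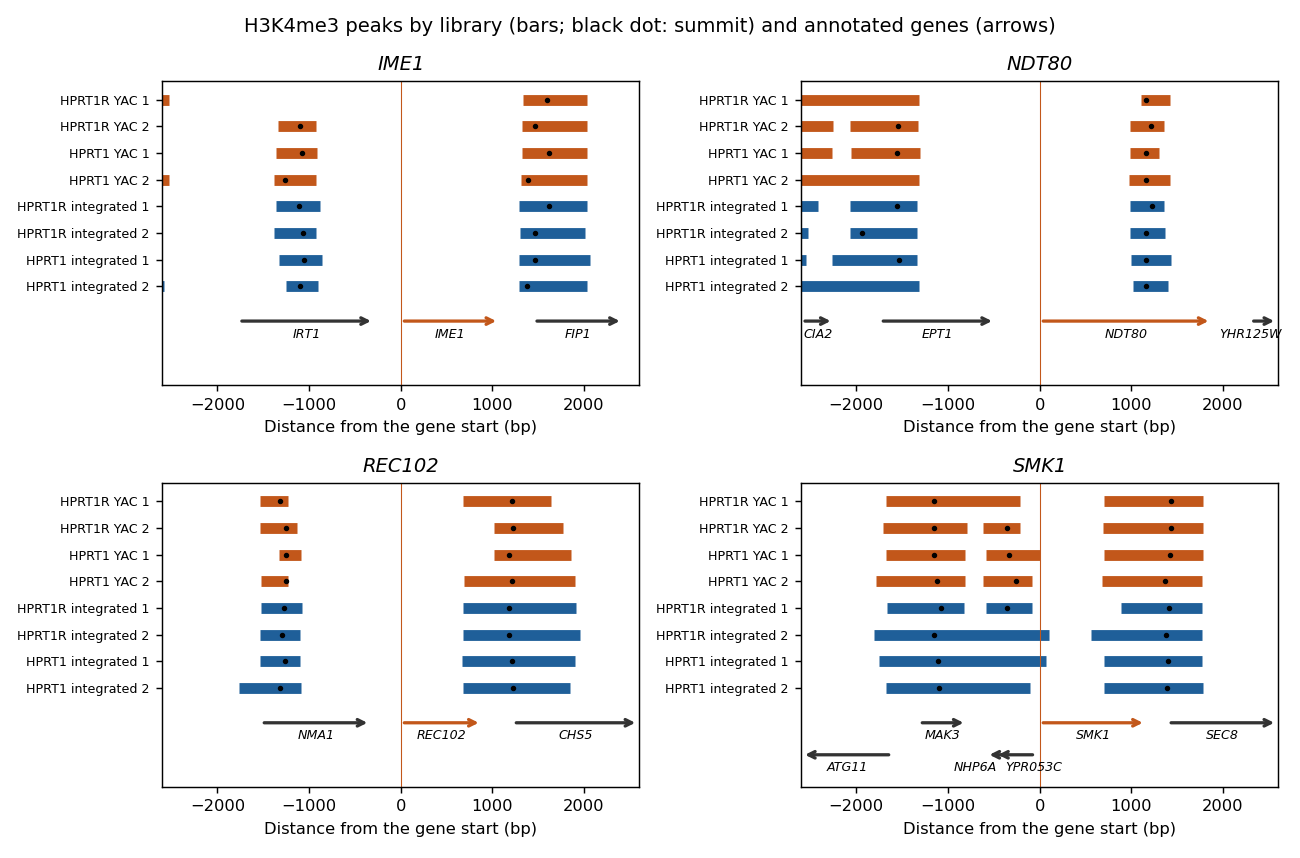
H3K4me3 peaks in each of the 8 libraries (orange, YAC; blue, integrated; dot, summit) by distance in bp from the start of IME1, NDT80, REC102 and SMK1, with arrows for annotated genes. The IME1 upstream peak is missing in HPRT1R YAC replicate 1, the NDT80 peak inside the gene is present in all 8, and the peaks at REC102 and SMK1 run in from adjacent genes.

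Antisense RNAs annotated over meiotic genes differed among themselves. RME3, antisense to ZIP2, and SUT169, antisense to the spore wall gene SPS100, had no peak over them in any library. RME2, antisense to the entry gene IME4, was marked at its start and had its own summit there in all 8 libraries, while the start of IME4 was marked in 1. RME2 is known to block IME4 in haploid cells. IME4 is outside the 48 genes and is named since it belongs to the list of entry signalling genes.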

How the data were processed

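Each H3K4me3 library had 1 list of peaks. Per the submitters' processing notes, bcl2fastq 2.20, Bowtie2 2.2.9, SAMtools 1.9, deepTools 3.5.0, MACS2 2.1.0 and the sacCer3 build were used. The settings and control of the caller were not given in the sources used. The authors deposited for each peak a score, a fold over the expected pileup (a ratio), and p- and q-values as −log10 values, used here only within a list. Genes came from RefSeq, assembly R64, with strand read from systematic names, and all 121 listed symbols were found. The members and lists were chosen with earlier results of these data known. Pileups were solved from fold and p, matched within 0.001 for at least 99.7% of peaks. The percent of each 701 bp start window under peaks was tested with limma 3.58.1 (R 4.3.3; lmFit, contrasts over 4 group means, eBayes; adjusted p threshold 0.05), leaving out genes constant over 8 libraries. Checked on simulated data, this fit and 4 other variance settings, tried after its calls were known, all made more false calls than that threshold implies. Values in every library were given for members marked in 1 to 7 libraries. NDT80, IME1, IME2, MEI5, REC102 and the adjacent genes were chosen after their values were seen. Python 3.11.15 was used. Of the list of mitotic counterparts, 2 genes are not reported here by name.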

Additional observations from a re-analysis of the deposited data

Results flagged for a closer look

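Of 30 sets of 4 libraries of the same configuration, 10 held a library far from the other 3. Some of these sets were chosen after their values were seen and some hold tied values, so no chance rate applies to this count. HPRT1R YAC replicate 1 accounted for 4. It had 8 members with a body peak, against 4 in each other YAC library, and 12 with a peak at the 3′ end, against 6, 6 and 7. Its nearest upstream peaks lay 2531 bp from IME1 and 3545 bp from IME2, against 910 to 921 bp and 684 to 726 bp. HPRT1 integrated replicate 2 had 2 marked members, against 1 in each other integrated library. The same event gave 17.5% of the RED1 start window under peaks, against 0. REC104 had its nearest upstream peak at 5451 bp in HPRT1R integrated replicate 1, against 495 to 562 bp in the other integrated libraries. In YAC libraries it lay at 5416 to 5620 bp, so that the near peak stood in 3 of the 8 libraries, and this difference between configurations was not tested. Small differences were found for bodies under peaks: REC102 in HPRT1 integrated replicate 1 (24.6%, against 23.2 to 23.3%), SPO22 in HPRT1 YAC replicate 2 (0%, against 5.67 to 5.9%) and SPO77 in HPRT1R integrated replicate 1 (2.23%, against 0 to 0.209%).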

How the results depend on the processing

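Under every alternative except the wider window, at most 2 members were marked in a library, and 0 in all 8. When a peak had to cover 50% of the window, or a summit had to lie after the start, the mean number marked was 0, in no library for 48 members, and the differences between groups were 0. A window from 500 bp upstream to 1000 bp downstream, added after seeing the data, gave 10 members per library, 5 in all 8 and 34 in none, with a YAC minus integrated difference of -1.5. Shares over all genes were not counted for this window or for the 50% rule, so these member counts have no comparison and show no trait of the list. Leaving out each library gave means of 0.714 to 1, 46 to 47 members unmarked, and differences of -0.917 to -0.5 for both comparisons. Own summits stayed at 0, and the share centred on a neighbour at 100%, under the alternatives run for them.

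Of the numbers of genes called, that for YAC against integrated stayed within 1.5 times in 12 of 18 alternatives, that for HPRT1R against HPRT1 in none of 18, and that for the interaction in 3 of its alternatives. In the order YAC against integrated, HPRT1R against HPRT1, interaction, they were 70, 11 and 30 as reported (485, 239 and 478 at an unadjusted p under 0.05). Without each library in turn they ran over 54 to 520, 0 to 384 and 0 to 565. Other settings gave 83, 25 and 60 (−log10 q of at least 5), 104, 48 and 77 (equal peak numbers), 65, 17 and 19 (window from the start) and 90, 43 and 80 (constant genes kept). The exact permutation test called 0 and 0 (234 and 44 unadjusted, smallest p 0.0286). That p is the lowest that 70 arrangements of the libraries allow. It could hardly pass an adjustment over 4777 genes, so these 0 calls decide nothing. Added after seeing the data, robust eBayes gave 52, 5 and 6, trended eBayes 70, 2 and 22, both together 49, 1 and 7, and a test against 10 points 30, 1 and 4. The cause was not tested. No member was called in any of these limma fits.

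The deviations of same-numbered libraries from their group means had correlations of -0.182 to 0.129. With 2 libraries per group these values cannot tell whether same-numbered libraries were handled together. With the replicate number as a block, limma called 27, 0 and 0 genes. The adjusted p of SMK1 ran from 0.448 to 1 over its fits, and its HPRT1R minus HPRT1 difference reached 1.55 points with the window from the start. Enrichment under the weakest called pileup of 99 to 124 reads left no peak. Read totals were not given, and the part of depth in the calls was not tested.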
